A study of Homo sapiens with 53 samples.

Results

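The clustered protocadherins are 53 genes for cell-surface adhesion proteins, arranged on human chromosome 5 as PCDHA1 to PCDHA13 with PCDHAC1 and PCDHAC2 (15 genes, alpha), PCDHB1 to PCDHB16 (16 genes, beta), and the PCDHGA, PCDHGB and PCDHGC genes (22 genes, gamma). They were examined as the ChIP-seq peaks that overlap chr5:140160000-140900000 of the build hg19, a window of 740 kb. The alpha cluster was taken up to 140400000, the beta cluster from 140420000 to 140640000 and the gamma cluster from 140700000. Of 99587 CTCF peaks under DMSO, 86 lay in the window, and of 245419 under BPK-25, 107. For MBD3 the window held 48 of 82358 peaks under DMSO and 115 of 243213 under BPK-25. For TET3 it held 7 of 14129 under DMSO and 4 of 13360 under BPK-25. The TET1 lists (5951 and 447 peaks) and the TET2 lists (1233 and 509 peaks) had 0 peaks there under either treatment.

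HEK293T, an established human embryonic kidney line, was given DMSO, the solvent, or BPK-25 at 30 µM for 72 h. BPK-25 is a compound known to lower proteins of the NuRD chromatin remodelling complex, of which MBD3 is a subunit. CTCF and MBD3 were precipitated from parental cells, and TET1, TET2 and TET3 (enzymes that oxidise methylated cytosine) through a Flag tag from derived lines that carry the tagged protein. Each immunoprecipitate group had 3 labelled samples, apart from TET2 under DMSO with 2, and inputs were labelled for each line and treatment. There was 1 deposited peak list per target and treatment, so replicate spread is not known, no difference between treatments could be tested, and every interval given covers counting error alone.

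Each alpha and gamma isoform begins with its own promoter and its own large first exon, which is joined to constant exons at the far end of its cluster, and the beta genes are single-exon genes. CTCF, the zinc-finger protein that anchors chromatin loops, is known to bind a conserved sequence element in most of these promoters, and in alpha genes a second site inside the first exon, and to loop the chosen promoter to distal enhancers. PCDHAC2, PCDHB1, PCDHGC4 and PCDHGC5 are the isoforms known to lack the element. Methylation of these CTCF sites is known to keep isoforms silent in single cells.

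Gene names were given by spacing, since no hg19 annotation was used. The starts of the 53 genes in RefSeq (GRCh38.p14) were laid over the DMSO CTCF summits with 1 common shift, and no coordinate was converted. The best shift put 47 of 53 starts within 300 bp of a summit, against 22 for the next best shift over 1000 bp away. The nearness of DMSO CTCF summits to starts was therefore used by the naming and is no finding. The other positions, those of BPK-25 and MBD3 summits and of DNA letters, were not used by it.

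The promoter letters are shown first, because the DMSO CTCF summits that the results turn on lie in or beside these windows. Promoter windows in RefSeq's GRCh38.p14 table matched 47 of the 53 members. Below are stretches before the start for the strongest and the weakest DMSO CTCF start summit with an entry in each cluster, for members with no summit there, and for 2 C-type genes. All are on the plus strand and read 5′ to 3′. Capitals mark the letters TGTCGCT in alpha, TGGCGCT in beta and GNCGCTGT in gamma, or the stretch 1 letter away from them where those letters were absent.
PCDHA11: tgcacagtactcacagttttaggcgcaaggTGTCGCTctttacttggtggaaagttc
PCDHA12: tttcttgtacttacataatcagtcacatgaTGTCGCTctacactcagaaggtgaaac
PCDHA5: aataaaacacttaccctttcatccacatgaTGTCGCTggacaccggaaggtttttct
PCDHA6: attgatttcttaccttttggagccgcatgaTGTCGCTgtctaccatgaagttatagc
PCDHA9: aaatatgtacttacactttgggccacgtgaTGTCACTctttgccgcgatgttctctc
PCDHB13: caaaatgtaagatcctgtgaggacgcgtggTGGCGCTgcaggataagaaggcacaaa
PCDHB4: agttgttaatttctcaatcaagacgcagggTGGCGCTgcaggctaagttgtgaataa
PCDHB1: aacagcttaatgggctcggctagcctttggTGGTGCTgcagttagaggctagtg
PCDHGA11: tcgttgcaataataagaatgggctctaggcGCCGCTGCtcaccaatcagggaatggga
PCDHGA5: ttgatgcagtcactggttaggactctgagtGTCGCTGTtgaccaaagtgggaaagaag
PCDHGC3: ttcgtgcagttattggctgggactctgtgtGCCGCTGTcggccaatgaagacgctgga
PCDHGC4: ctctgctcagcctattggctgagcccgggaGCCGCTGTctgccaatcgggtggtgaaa

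The letters were chosen after reading these windows, and were searched on both strands of the 250 bases before the start. TGTCGCT was on the plus strand in 10 of the 11 windows of PCDHA1 to PCDHA13, and in 1.32% of all 35116 promoter windows on either strand. TGGCGCT was in 12 of 14 beta windows and in 3.13% of all windows, and GNCGCTGT in 15 of 18 windows of gamma A and B genes and in 3.34% of all. The alpha letters followed by GT also hold the gamma letters, so the searches overlap. PCDHA9 differs from the alpha letters by G5A, counted from the first capital, and PCDHB1 from the beta letters by C4T. PCDHGA11, with the strongest start summit of all 53 genes, differs from the gamma letters by T8C. A match describes the letters of this window and shows no binding by itself.

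The DMSO CTCF summits at the starts are described here by height and by the genes that lacked one. Between 300 bp before and 100 bp after the start, here the start zone, 45 of 53 genes had a CTCF summit, a count that the common shift was chosen on and that was 31 with a shift 171 bp away. These were 10 of PCDHA1 to PCDHA13, 15 of 16 beta genes, 19 of 19 gamma A and B genes, and 1 of the 5 C-type genes, PCDHGC3. The genes without one were PCDHA5, PCDHA6, PCDHA9, PCDHAC1, PCDHAC2, PCDHB1, PCDHGC4 and PCDHGC5, a group that holds all 4 isoforms known to lack the element. PCDHA5, PCDHA6 and PCDHGC4 had their cluster's letters and no start summit, and PCDHB8, PCDHGB3, PCDHGB7 and PCDHGA11 had a start summit without the exact letters. PCDHGC4 held the letters although it is known to lack the element, so the letters alone do not stand for the element.

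The height of a summit is given as its pileup, the number of fragments stacked there, divided by the lowest local background of its list, and is called height over background. Start summits had a median height of 37.8 times background (quartiles 22.8 and 65.7). PCDHGA11 was highest at 178 times (165 to 192, 95% Poisson interval), then PCDHA11 at 165 times (152 to 179) and PCDHB13 at 134 times (122 to 146). These 3 promoters lay above all others, the next being PCDHB8 at 83.7 times (74.6 to 93.5) and PCDHGB7 at 83.1 times (74.1 to 93.0), whose intervals overlap. PCDHGA5 and PCDHGA12 were lowest at 5.16 times each, beside PCDHA12 at 5.43 times. PCDHA11 and PCDHA12 are neighbours in the alpha cluster with the same 7 letters, yet PCDHA12's height was at the bottom of the range. By cluster the median was 28.0 times in PCDHA1 to PCDHA13, 47.8 times in beta and 27.7 times in gamma A and B.

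The summits followed the letters gene by gene. In PCDHA1 to PCDHA13 the summit lay a median of -11.5 bp from the first letter of TGTCGCT with an SD of 7.09 bp over 8 genes, although the letters themselves lay anywhere from -84 to -41 bp of the start. In beta the median was -17.0 bp (SD 11.8 bp, 12 genes) and in gamma A and B -32.0 bp (SD 8.58 bp, 15 genes). Over the 36 genes with both, position of the letters and position of the summit had a Pearson correlation of 0.823 and a Spearman correlation of 0.756. These are descriptions across genes that share 1 library pool and 1 common shift, which sets the medians but not the spread. PCDHB4, the weakest beta site, was the exception to the order of positions, with its summit 12 bp after its letters.

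**Figure D1:**
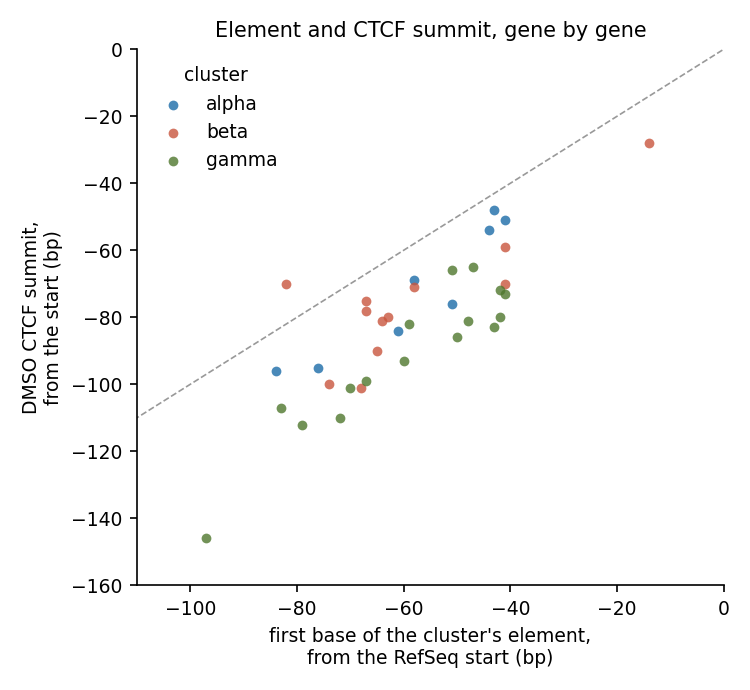
Position of the DMSO CTCF summit (vertical, bp from the start) against the first base of the cluster's letters (horizontal, bp from the RefSeq start) for 36 genes, coloured by cluster, with a dashed line of equal positions. The points run parallel to the line, 11.5 to 32.0 bp below it in the cluster medians, and 1 beta gene, PCDHB4, lies above it.

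Alpha genes carried a second CTCF summit inside the gene. In 12 of PCDHA1 to PCDHA13 a DMSO CTCF summit lay between 450 and 700 bp downstream of the start, at 479 to 594 bp, and PCDHA1 was the gene without one. This range was chosen with the data known. The share of all DMSO CTCF summits with a second summit at that distance was not computed. PCDHA11 had 165 times background at its start and 116 times at the downstream site, and PCDHA10 had 74.4 and 50.5 times. PCDHA8 had 40.5 times at its start and 82.8 times downstream, and PCDHA13 had 17.9 and 45.1 times. Of the 9 genes with both sites the downstream one was higher in 5 and the start one in 4, so neither site was the stronger across the cluster. The counting intervals overlapped in 3 of the 9, PCDHA2, PCDHA7 and PCDHA12, whose order is therefore open. PCDHA5 and PCDHA9, with no start summit, had 73.3 and 24.7 times at the downstream site, and PCDHA6 had 4.89 times. No beta gene and 1 gamma gene, PCDHGA11 with 6.52 times, had a DMSO CTCF summit between 100 and 1000 bp.

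**Figure D2:**
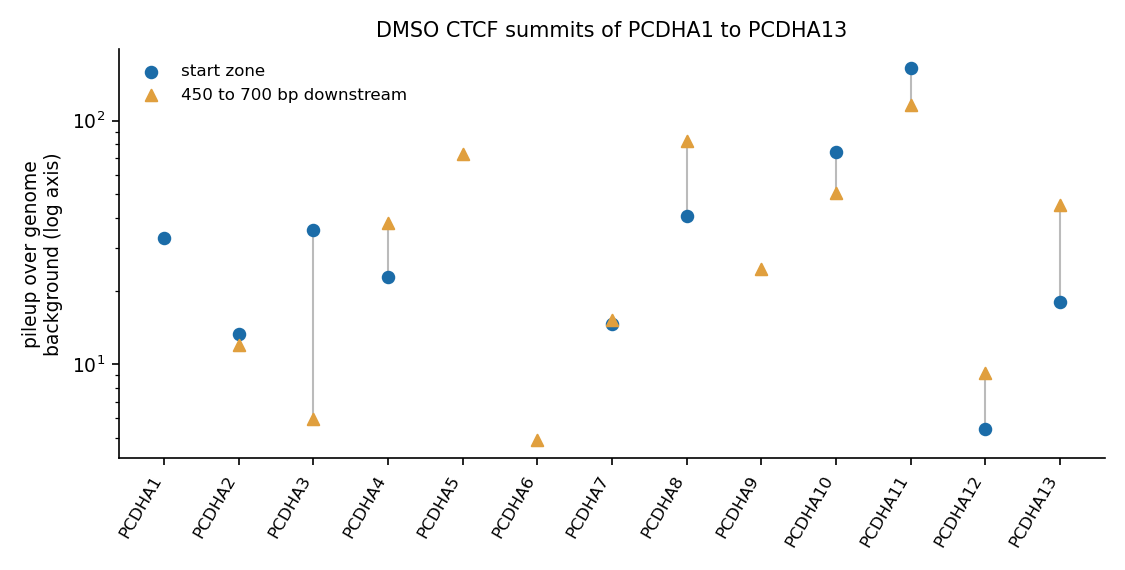
Height over background (log axis) of DMSO CTCF summits in PCDHA1 to PCDHA13, with circles for the start zone, triangles for the site 450 to 700 bp downstream, and grey lines joining sites of 1 gene. Triangles lie above circles in 5 of the 9 joined genes, and PCDHA5, PCDHA6 and PCDHA9 have a triangle alone. In 3 of the 9 the counting intervals, not drawn, overlap.

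Under BPK-25 nearly all promoter sites were absent from the CTCF list. A BPK-25 CTCF peak covered 1 of the 45 start summits, that of PCDHGC3, which is 2.22% (exact Clopper-Pearson interval 0.0562% to 11.8%), while 36.8% of all DMSO CTCF summits of the genome were covered. Among summits of at least 20 times background the counts were 1 of 35 start summits and 30.8% over the genome, so the gap was there at strong sites too. With any BPK-25 CTCF peak within 300 bp counted, 13 of 45 start summits (28.9%) had one beside them. PCDHB13 (chr5:140593236-140593743, fold enrichment 61.2 over local background under DMSO), PCDHGB7 (chr5:140797001-140797359, 32.9), PCDHGB1 (chr5:140729417-140729789, 44.0) and PCDHGA1 (chr5:140709835-140710123, 28.9) had no BPK-25 CTCF peak within 1000 bp. The median distance from a start summit to the nearest BPK-25 CTCF peak was 271 bp in PCDHA1 to PCDHA13, 1544 bp in beta and 758 bp in gamma A and B. The faintest pileup called at genome background was 8 fragments under BPK-25, or 3.10 times background, so signal under that height would not be listed, nor would somewhat higher signal where the local background is raised. PCDHGC3 went from 67.4 times (59.2 to 76.3) to 5.82 times (3.26 to 9.60).

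At the same time CTCF and MBD3 summits further inside the genes were found in more genes than under DMSO, where weaker ones were present in some. Between 1000 and 3000 bp downstream of the start, here the late zone, 51 of 53 genes had a BPK-25 CTCF summit and 52 of 53 a BPK-25 MBD3 summit. PCDHB1 had neither, and PCDHGC4 had MBD3 alone. No hg19 annotation was used, so the same share over all genes was not computed. In bins of the zone's length, 2000 bp, along chromosomes 1 to 22 and X, 13.0% held a BPK-25 CTCF summit and 12.8% a BPK-25 MBD3 summit. Of all DMSO CTCF summits, 32.5% had a BPK-25 CTCF summit and 32.7% a BPK-25 MBD3 summit at that distance to their right. The median CTCF height there was 18.2 times background (quartiles 14.7 and 21.1), at a median of 2001 bp from the start. PCDHB9 was highest for both targets, with 32.6 times (26.0 to 40.4) for CTCF and 33.9 times (27.1 to 41.8) for MBD3. PCDHGA9 was lowest for CTCF at 6.98 times (4.14 to 11.0), beside 7.79 times for MBD3. Nearer the start, between 100 and 1000 bp, 27 of 53 genes had a BPK-25 CTCF summit and 33 of 53 a BPK-25 MBD3 summit. Their median heights were lower, 7.37 and 7.79 times. In PCDHA1 to PCDHA13 these were 10 genes for CTCF and 13 for MBD3, at median distances of 273.5 and 278 bp. Under DMSO the counts over the 53 genes were 14 for CTCF and 5 for MBD3. The share of genome bins of that length was not computed. The zones were drawn after the positions were seen.

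Late-zone heights of CTCF and MBD3 under BPK-25 lay close to each other in most genes. Over 51 genes the ratio of CTCF to MBD3 height had a median of 0.981 (quartiles 0.896 and 1.13), and the counting intervals of the pair overlapped in 51 of 51, which does not show that the heights were equal. PCDHA11 had 25.2 times for CTCF and 20.6 times for MBD3, PCDHB13 had 20.6 and 24.5 times, and PCDHGB4 had 22.1 and 17.5 times. The widest differences were PCDHGA11, with 11.6 times for CTCF and 21.4 times for MBD3 (pileups of 30 and 55 fragments), and PCDHGB5 in the other direction with a ratio of 1.58. The Spearman correlation over the 51 genes was 0.647, as a description of pools that came from the same cells and treatment. Height of the DMSO start summit and of the BPK-25 late summit had a Spearman correlation of 0.131 over 45 genes.

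**Figure D3:**
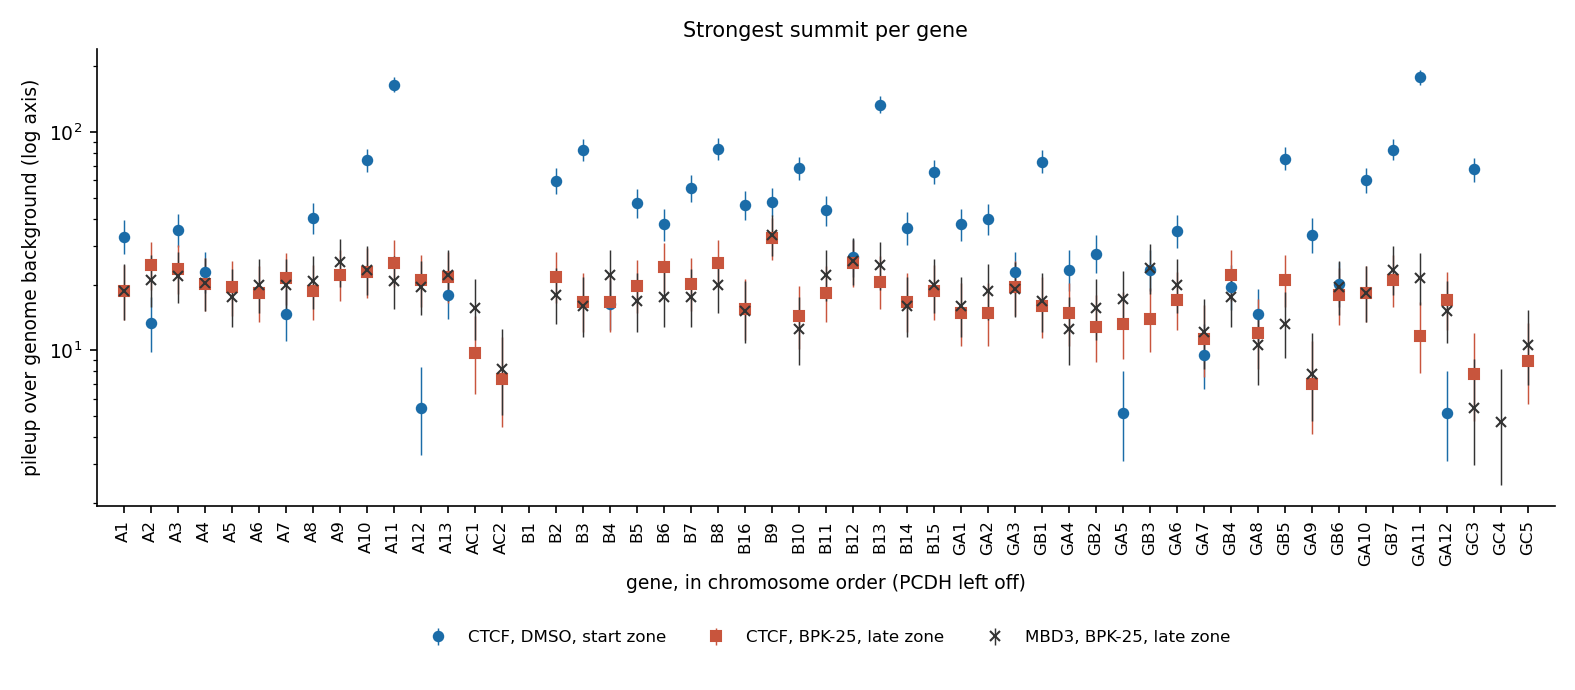
Height over background (log axis) of the strongest summit of each of the 53 genes in chromosome order, with circles for DMSO CTCF in the start zone, squares for BPK-25 CTCF and crosses for BPK-25 MBD3 in the late zone, and bars for 95% Poisson intervals. The bars of squares and crosses overlap in every gene that has both, while circles range from 5.16 to 178 times.

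Weaker late-zone summits were present under DMSO. CTCF had one in 24 of 53 genes with a median of 4.48 times background, and MBD3 in 28 of 53 with a median of 4.67 times. Of the 2000 bp bins, 6.24% held a DMSO CTCF summit and 4.96% a DMSO MBD3 summit. BPK-25 height was above DMSO height in 24 of 24 genes for CTCF, by a median of 4.66 times, and in 28 of 28 for MBD3, by a median of 4.39 times. The counting intervals were apart in 21 of 24 and 28 of 28 genes. At PCDHB12 CTCF went from 4.89 times (2.90 to 7.73) to 25.2 times (19.5 to 32.1) and MBD3 from 6.85 times (4.29 to 10.4) to 25.7 times (19.9 to 32.7). PCDHGA6 had the highest DMSO CTCF value of the zone, 14.1 times, and the smallest ratio, 1.21. Where a gene lacked a DMSO summit, its value is unknown. The local background at late CTCF summits was a median of 1.85 times the genome background under BPK-25 and 1.14 times under DMSO; its part in the result was not tested.

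**Figure D4:**
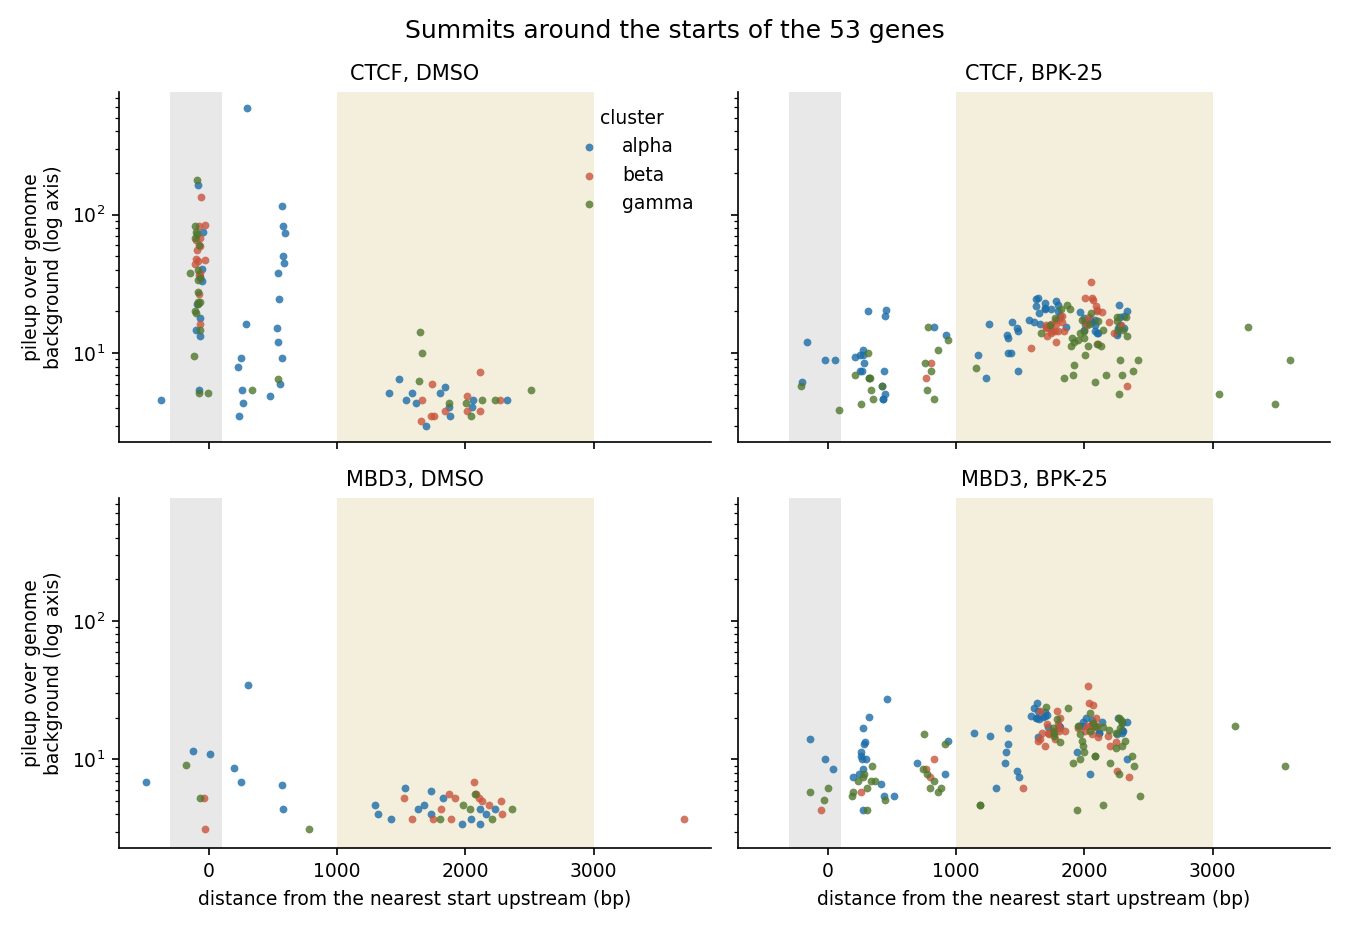
Height over background (log axis) of every summit against its distance from the start (bp) for CTCF and MBD3 under DMSO and BPK-25, coloured by cluster, with the start zone shaded grey and the late zone beige. DMSO CTCF summits crowd the grey band, with alpha genes again at 479 to 594 bp, and BPK-25 summits of both targets crowd the beige band.

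Of all 115 CTCF summits under DMSO, 39.1% lay in the start zone and 28.7% in the late zone, and of 199 under BPK-25, 3.02% and 60.8%. The common shift was chosen on the DMSO CTCF summits, which favours their start-zone share. The zones were drawn after the positions were seen, so these shares are descriptions. MBD3 placed 60.3% of 58 DMSO summits and 59.4% of 197 BPK-25 summits in the late zone, so its share there was alike in both lists while its heights were not. Of BPK-25 CTCF peaks with no DMSO CTCF peak within 1000 bp, the 2 of highest -log10 q in beta and in gamma were PCDHB13 at 2095 bp (chr5:140595038-140595937, fold enrichment 15.1), PCDHGB4 at 1862 bp (chr5:140768870-140769615, 14.3), PCDHGB5 at 1814 bp (chr5:140779090-140779891, 11.0) and PCDHB15 at 1823 bp (chr5:140626452-140627368, 10.4). The 2 of alpha lay in no late zone, with summits at 140242758 (fold enrichment 8.97) and 140331771 (3.63). For MBD3 the peaks chosen in the same way, 2 per cluster by -log10 q, that lay within 3000 bp of a start were PCDHGB6 at 1786 bp (fold enrichment 11.4), PCDHA6 at 1621 bp (10.1), PCDHB14 at 1800 bp (9.91) and PCDHGB3 at 1702 bp (8.83).

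The distribution of fold enrichment, the ratio of pileup to local background, moved with these positions. CTCF peaks of the window had a median of 15.3 under DMSO and 5.90 under BPK-25. A fold of 10 or more was reached by 53 of 86 DMSO peaks, where 53.2% of the whole list did, and by 14 of 107 BPK-25 peaks, where 0.942% did. MBD3 had medians of 3.32 and 5.81, with 1 of 48 peaks at 10 or more under DMSO (6.32% of the list) and 14 of 115 under BPK-25 (0.932% of the list). The window's BPK-25 peaks therefore sat high in lists that were weak as a whole. By -log10 q the median window peak ranked at the 91.0th percentile of the BPK-25 CTCF list and the 86.6th of the BPK-25 MBD3 list, against the 54.4th and 27.4th under DMSO.

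The C-type genes, whose isoforms are used more evenly between cells, differed from one another. PCDHGC3 had a DMSO CTCF start summit, as all gamma A and B genes did. PCDHAC1 carried the highest CTCF summit of the window, 591 times background (566 to 616) at 300 bp with a fold enrichment of 263 (chr5:140305673-140306675). Under BPK-25 the peak there had 20.6 times (15.4 to 26.9) at 454 bp and nearly the same height, 20.2 times, at 317 bp. MBD3 at PCDHAC1 was 34.2 times (28.1 to 41.3) under DMSO, its highest value in that list's window, at 309 bp, and 20.3 times (15.1 to 26.6) under BPK-25. PCDHAC2 had a weak DMSO CTCF summit of 4.62 times at -371 bp and none in the zones, and under BPK-25 had 12.0 times at -160 bp and 18.6 times at 445 bp. MBD3 at PCDHAC2 was present under both treatments, with 11.5 times at -122 bp under DMSO and 27.3 times at 461 bp under BPK-25.

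PCDHGC4 and PCDHGC5 had no CTCF summit in any zone under DMSO. Under BPK-25 PCDHGC4 had 5.43 times at 338 bp and PCDHGC5 8.92 times at 2418 bp. PCDHB1, the first beta gene, had nothing under DMSO for either target, and 6.60 times for CTCF at 768 bp and 8.57 times for MBD3 at 762 bp under BPK-25. BPK-25 CTCF summits in the start zone were found in 4 of 53 genes, PCDHAC1, PCDHAC2, PCDHGC3 and PCDHGC4, all of them C-type, and 3.93% of 400 bp bins held one. With the zone widened by 200 bp on each side the count was 13 genes. In the late zone the C-type genes were low under BPK-25, with a CTCF median of 8.34 times and no summit in PCDHGC4. The late-zone median was 21.3 times in PCDHA1 to PCDHA13, 19.8 times in beta and 14.7 times in gamma A and B. Between 100 and 1000 bp most C-type genes were not low. CTCF under BPK-25 there had 20.6 times in PCDHAC1, 18.6 times in PCDHAC2 and 15.5 times in PCDHGC3. PCDHGC4 had 5.43 times and PCDHGC5 no summit. The median of that stretch was 7.95 times in PCDHA1 to PCDHA13 and 7.37 times over all genes with a summit.

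Counted as whole peaks, overlap between treatments was uneven across the clusters. Of the 86 DMSO CTCF peaks 40 overlapped a BPK-25 CTCF peak by at least 1 bp, 46.5% (35.7% to 57.6%), with 39.2% over the whole list, a share inside that interval. In alpha it was 20 of 26 peaks (76.9%, 56.4% to 91.0%), in beta 10 of 29 (34.5%, 17.9% to 54.3%) and in gamma 9 of 29 (31.0%, 15.3% to 50.8%). The alpha peaks were wider, with a median of 549.5 bp under DMSO and 1045 bp under BPK-25, against 415 and 876 bp in beta and 306 and 320 bp in gamma. By -log10 q the beta peaks with overlap were led by weak late-zone ones, PCDHB9 (fold enrichment 3.72), PCDHB12 (3.69) and PCDHB14 (3.28). Summit by summit, 30 of 115 had a BPK-25 summit within 100 bp, where 30.6% of the whole list did. Of the 107 BPK-25 CTCF peaks 41 overlapped a DMSO peak, 38.3% (29.1% to 48.2%), with 16.7% over the list.

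Over the whole window MBD3 peaks were more often shared between treatments than those of the whole list, though not the BPK-25 peaks of gamma. Of 48 DMSO MBD3 peaks 39 overlapped a BPK-25 MBD3 peak, 81.3% (67.4% to 91.1%), with 61.4% over the list. Of 115 BPK-25 MBD3 peaks 36 overlapped a DMSO one, 31.3% (23.0% to 40.6%), with 21.8% over the list. In number, MBD3 peaks went from 10 to 59 in gamma (5.90 times), from 20 to 30 in alpha (1.50 times) and from 17 to 24 in beta (1.41 times), and the whole MBD3 list grew 2.95 times. CTCF peaks went from 29 to 54 in gamma (1.86 times), from 26 to 29 in alpha (1.12 times) and from 29 to 23 in beta (0.793 times), all less than the 2.46 times of the whole CTCF list.

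The overlap of CTCF peaks with MBD3 peaks also differed between the lists. It compares intervals from separate immunoprecipitates and does not show both proteins on the same DNA. Under DMSO 25 of 86 CTCF peaks overlapped an MBD3 peak, 29.1% (19.8% to 39.9%), with 36.9% over the list. Under BPK-25 91 of 107 did, 85.0% (76.9% to 91.2%), with 69.0% over the list. The share under BPK-25 was 89.7% in alpha, 87.0% in beta and 81.5% in gamma. The BPK-25 lists of both targets hold 2.46 and 2.95 times as many peaks as the DMSO lists; the part of list size in this difference was not tested.

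**Figure D5:**
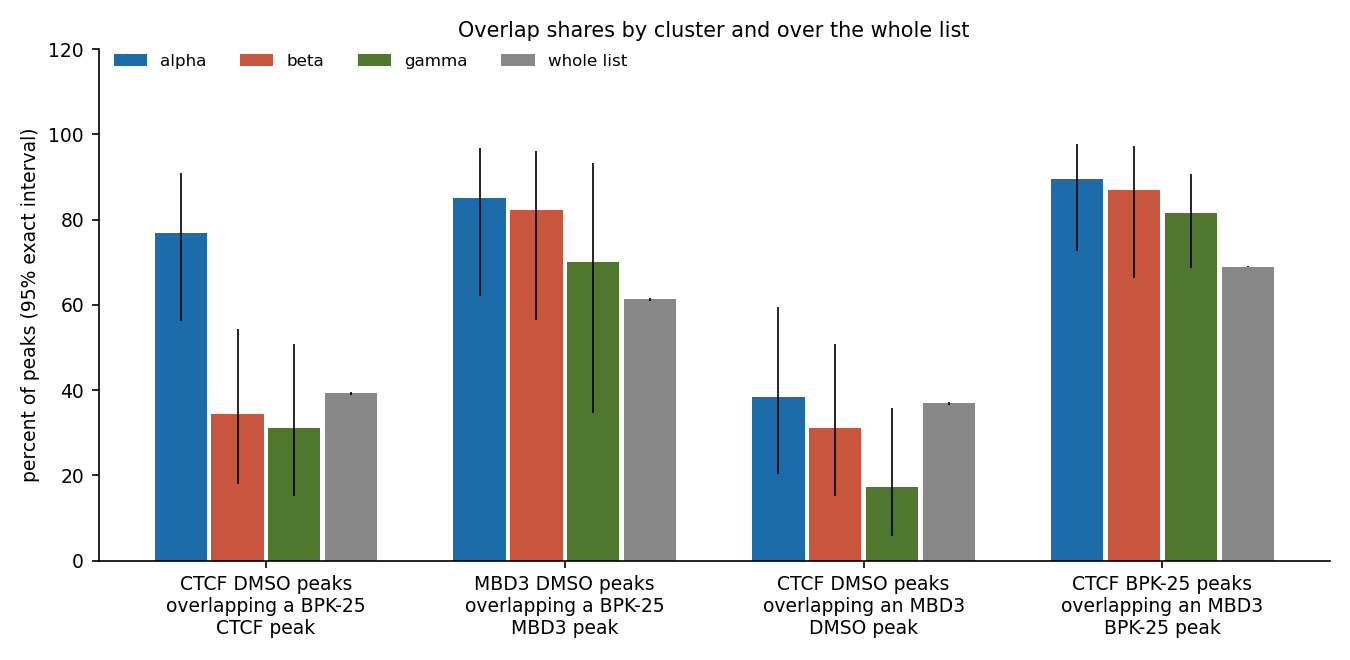
Percent of peaks that overlap a peak of a second list by at least 1 bp, for the alpha, beta and gamma clusters and for the whole list (grey), with 95% exact intervals. The alpha bar for CTCF under both treatments, 76.9%, stands above beta and gamma at 34.5% and 31.0%, and the last set of bars lies between 69.0% and 89.7%.

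TET3 overlapped a few of the CTCF peaks. Its 7 DMSO peaks lay at PCDHA10 (103 bp, fold enrichment 4.17), on both sides of PCDHAC1 (-267 bp, 3.84, and 760 bp, 4.25), at PCDHAC2 (17 bp, 6.38), at PCDHB8 (-149 bp, 4.08) and at 2 sites outside the genes, and all 7 overlapped a DMSO CTCF peak, as did 58.1% of the whole TET3 list. That overlap is of intervals, by at least 1 bp, and does not place the summits together. At PCDHAC1 the DMSO CTCF summit lay at 300 bp, away from both TET3 summits. Outside the genes the 2 TET3 summits, 140420889 and 140699860, lay close to CTCF summits at 140420940 and 140699892. Under BPK-25 the peaks were PCDHAC1 at 1001 bp (3.14), PCDHAC2 at 1046 bp (3.12), 1 between alpha and beta (summit 140419939) and 1 at the first edge of beta (140420884). Of the 7 DMSO peaks 2 overlapped a BPK-25 one, 28.6% (3.67% to 71.0%), with 31.9% over the list. In the late zone under BPK-25, CTCF had a summit in 51 genes and MBD3 in 52. TET3 had one in 2 genes, and TET1 and TET2 in 0. The BPK-25 lists of TET3, TET1 and TET2 hold 13360, 447 and 509 peaks. The share of 2000 bp bins with a TET summit was not computed, so these counts show neither a lack nor an excess. The faintest TET pileup called at genome background was 4.86 times background for TET3, 5.71 for TET1 and 7.64 for TET2 under BPK-25, and higher signal is needed where the local background is raised.

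Strong CTCF sites away from the starts were absent from the BPK-25 list or lower there as well. HS5-1, the enhancer known to loop to alpha promoters, lies between the alpha and beta clusters; its coordinates were not used here. In that stretch 1 CTCF peak (chr5:140419593-140421128) held a pair of strong summits under DMSO, 113 times background at 140419957 and 153 times at 140420940. No BPK-25 CTCF peak lay within 1000 bp, yet TET3 was called at the second summit under both treatments (fold enrichment 4.45 and 7.18) and at the first under BPK-25 (6.43). A site inside the beta cluster at 140464170, with 99.4 times background, also had no BPK-25 CTCF peak within 1000 bp. At the end of the window a site at 140892071 had 217 times under DMSO and 8.54 times (summit 140892200) under BPK-25. A weak DMSO site went the other way: 140616058, inside the pseudogene PCDHB18P, had 4.35 times, and the BPK-25 peak over it 20.2 times.

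Between beta and gamma, CTCF at 140699892 had 200 times background under DMSO, with MBD3 (10.3 times) and TET3 (7.67 times) summits beside it. By the spacing it lies in TAF7, a gene for a subunit of the general transcription factor TFIID. Under BPK-25 a CTCF peak of 14.7 times had its summit 466 bp further on, at 140700358, with MBD3 at 15.2 times. Further DMSO sites away from starts were 140652675 (16.0 times) in the beta to gamma gap and 140705761 (21.7 times) at the edge of gamma.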

How the data were processed

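ChIP-seq of CTCF, MBD3, TET1, TET2 and TET3 under DMSO or BPK-25 was studied through its 10 deposited narrowPeak lists. Each stands for 1 target under 1 treatment and was taken as called on pooled replicates. The submitters' processing notes name hg19, MACS2 2.1.2, Bowtie2 2.3.4, bedtools 2.25.0, SAMtools 1.9 and FastQC 0.11.7. Their settings, and how reads that match several of these similar genes were handled, were not given in the sources used here. The deposited columns give, per summit, fold enrichment (the ratio of pileup over the caller's local background), the -log10 p-value and, used here as a ranking score, the -log10 q-value, as the authors' caller wrote them. Library depths are not given in these lists.

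Pileup and local background were solved from fold enrichment and the deposited -log10 p, assuming a Poisson model. Of pileups under 200, 100% came out whole within 0.02 in every list. The genome background, the lowest local background of a list, was 3.68 and 2.58 fragments for CTCF under DMSO and BPK-25 and 3.21 and 2.57 for MBD3, and follows depth. Overlapping or touching rows of a list became 1 peak. Shares have exact Clopper-Pearson intervals, pileups Poisson intervals, both at 95%. The members, zones, letters and lists were chosen with earlier results of these data known. Sites named in the text were, per cluster and ranked by -log10 q, the 3 strongest shared DMSO CTCF peaks, the 3 strongest without a BPK-25 peak within 1000 bp, the 2 strongest BPK-25 peaks of CTCF and of MBD3 without a DMSO peak within 1000 bp, every TET peak, every DMSO CTCF peak away from starts, the C-type genes and PCDHB1; other genes were named after their values were seen. Alternatives covered the q threshold, merging, overlap rule, list size, pileup requirement, naming and zone bounds. Python 3.11.15, numpy 2.4.6, pandas 2.3.3 and scipy 1.17.1 were used, and the steps were tested on simulated data.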

Additional observations from a re-analysis of the deposited data

How the results depend on the processing

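All values rest on pooled lists, so leaving out a replicate could not be done. No paired analysis was possible because each group has 1 pooled list. Of 74 alternatives, 51 gave a share inside the main interval, a count within 1.5 times or a naming shift within 300 bp; those added after seeing the data concern the zones and the cover of start summits. At -log10 q of at least 5 and 10, CTCF peaks shared between treatments fell to 25% and 5.26%, CTCF peaks with MBD3 under DMSO to 13.2% and 1.75%, and those under BPK-25 rose to 92.3% and 93.4%; MBD3 sharing at 10 was 100% of 2 peaks, and the ratio of BPK-25 to DMSO MBD3 peak numbers went from 2.40 to 5.67 and 32.5. Requiring 50% of a peak covered gave 31.4% for CTCF sharing and 12.8% for CTCF with MBD3 under DMSO, summits within 200 bp gave 30.2% for CTCF sharing, and lists cut to the same number of strongest peaks gave 17.5% for CTCF with MBD3 under DMSO. Start summits covered under BPK-25 were 0% at either q threshold (0 of 45 and 0 of 42) and 28.9% (13 of 45) when a peak within 300 bp counted. Late-zone DMSO CTCF counts fell from 24 genes to 10 and 2 at those thresholds, while late-zone BPK-25 CTCF kept 49 and 46 genes. Start-zone BPK-25 CTCF went from 4 genes to 2 at -log10 q of at least 5 and to 13 with bounds moved out by 200 bp. The naming shift moved by -556 bp with alpha starts alone, by 171 bp with 200 bp as the limit, and by 75 and 86 bp with beta or gamma alone. Distances carry an uncertainty of that order. In size the alpha value lies within 479 to 594 bp, the distances of the second alpha CTCF summits. Whether it follows those summits was not tested. With the 171 bp shift the DMSO CTCF start count was 31 of 53. The shift moved by -2030 bp with MBD3 DMSO summits and by -1994 bp with MBD3 BPK-25 summits. With BPK-25 CTCF summits, which were not among the 74 alternatives, it moved by -2049 bp. A shift found on these lists follows their own summits, most of which lay in the late zone, so it cannot measure naming error. The faintest called pileup was about 3 times background for CTCF and MBD3 where local background was lowest, and calling needed more elsewhere.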

Other observations

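Protocadherin pseudogenes between the members, named by the same spacing, had summits at the same distance from their starts as the late zone of the genes. Under BPK-25 the strongest CTCF summit inside PCDHA14 had 19.4 times background at 1966 bp, in PCDHB17P 16.3 times at 2156 bp, in PCDHB18P 20.2 times at 2083 bp, in PCDHB19P 22.9 times at 1701 bp, in PCDHGB8P 21.3 times at 1487 bp and in PCDHGB9P 13.6 times at 1844 bp. MBD3 under BPK-25 was at 21.8, 22.6, 16.8, 17.1, 13.6 and 17.9 times in the same order. These heights fall within the range of the 51 genes.

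Under DMSO, PCDHB17P had a CTCF summit of 19.3 times at -43 bp and PCDHB18P of 61.1 times at -60 bp, and neither was overlapped by a BPK-25 CTCF peak. PCDHA14, PCDHB19P, PCDHGB8P and PCDHGB9P had no DMSO CTCF summit. TET3 had no summit in any of the 6 pseudogenes under either treatment.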
